A study of Mus musculus with 22 samples.

Results

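Expression of 44 cell cycle genes was examined in the livers of 22 C57BL/6 females, sequenced as total RNA, with or without pregnancy and with or without a gut microbiota. The genes were taken from a list of symbols, matched to the Ensembl identifiers of the deposited table, and all 44 were found among its 53392 rows. By role, they were 7 genes of the D and E cyclins and their kinases, 5 regulators, 13 genes of DNA replication and nucleotide supply, and 19 genes of mitosis. A filter on low counts passed 42 of them; Cdc6, a replication licensing gene, and Bub1, a checkpoint kinase gene, did not pass.

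Conventional mice carry an ordinary microbiota, and germ-free mice are kept without microorganisms. The 6 conventional non-pregnant and 5 conventional pregnant mice had age labels of 70 or 77 (unit not stated). Age labels ran from 92 to 105 in the 6 germ-free non-pregnant mice and from 91 to 121 in the 5 germ-free pregnant mice. Pregnant livers were labelled gestation day 15. That day was counted from an overnight mating in conventional mice and assumed within a mating of 72 h in germ-free mice, so gestational age was less certain in the latter. No group carried an engineered allele or a drug treatment in the labels, all were fed the same autoclaved chow, and each library was made from 1 mouse. Age and microbiota status did not overlap and cannot be told apart here.

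Most hepatocytes of an adult liver rest outside the cell cycle and can re-enter it. D cyclins, with Cdk4, respond to growth signals and release E2F factors from the retinoblastoma protein. E cyclins, with Cdk2, then start DNA replication, which the Mcm helicase, Pcna and the enzymes of nucleotide supply carry out. Genes of mitosis are held off in resting cells by the DREAM complex, which binds a promoter element named CHR (cell cycle genes homology region), and are switched on late in the cycle by B-Myb and Foxm1, with NF-Y at nearby CCAAT boxes. The liver is known to enlarge during mouse pregnancy.

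Promoter stretches of 4 members are printed as examples of these elements, and they do not stand for their roles. Each motif was found in 1 of 4 windows of regulators, that of E2f8. An E2F core, as in Mki67, was found in 3 of 16 windows of mitosis genes. No gene of the cyclin D and E group is printed. Each is the stretch of 150 bases just before a RefSeq transcription start, read along the gene's strand on GRCm38.p6. Capitals mark the motifs searched, in either orientation. They were the CHR, spelled TTTGAA, the CCAAT box, and a core of the E2F site. The E2F core was searched as TTGGCGC and in the other form known for these sites, TTCCCGC. When read on the opposite strand, a CCAAT box can share bases with an E2F core, as in E2f8.
Mki67: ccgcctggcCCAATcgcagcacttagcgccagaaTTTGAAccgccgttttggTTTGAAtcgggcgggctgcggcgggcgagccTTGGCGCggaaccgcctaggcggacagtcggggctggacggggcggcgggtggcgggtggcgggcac
Top2a: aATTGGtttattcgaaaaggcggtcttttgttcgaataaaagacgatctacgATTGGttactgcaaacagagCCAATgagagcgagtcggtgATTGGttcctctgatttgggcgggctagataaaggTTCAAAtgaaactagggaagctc
Mcm5: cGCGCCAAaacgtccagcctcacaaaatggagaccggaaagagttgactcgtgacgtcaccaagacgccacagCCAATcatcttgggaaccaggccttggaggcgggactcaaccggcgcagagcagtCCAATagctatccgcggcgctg
E2f8: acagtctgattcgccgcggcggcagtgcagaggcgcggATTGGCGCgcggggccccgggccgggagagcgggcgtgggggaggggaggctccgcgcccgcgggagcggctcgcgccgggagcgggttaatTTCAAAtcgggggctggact

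The stretch of Mki67, a marker of dividing cells, is chr7:135716380-135716529 on the minus strand. That of Top2a, which untangles DNA before division, is chr11:99024190-99024339 on the minus strand. Mcm5, a subunit of the replication helicase, is shown at chr8:75109359-75109508 on the plus strand. E2f8, an E2F factor that represses transcription, is shown at chr7:48881597-48881746 on the minus strand. Mki67 held the CHR at -116 and -98 before its start and 1 E2F core at -67, and Top2a held a CHR at -23. Mcm5 held an E2F core at -149 and no CHR in its window.

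RefSeq windows of 250 bases before to 50 bases after a start were found for 34 of the 44 members, in 38 windows. No entry was found for Ccnd1, Ccnd2, Ccne2, Foxm1, Myc, Mcm4, Ccna2, Aurkb, Kif20a and Tpx2. The CHR was present in 12 of 16 windows of mitosis genes (75.0%), in 2 of 13 windows of replication genes (15.4%), in 1 of 4 windows of regulators (25.0%) and in 0 of 5 windows of the cyclin D and E group. Over all 32851 windows of the table the share was 17.9%. The E2F core stood in 7 of 13 replication windows (53.8%) and 3 of 16 mitosis windows (18.8%), against 6.81% of all windows. CCAAT boxes were present in 14 of 16 mitosis windows (87.5%) and 10 of 13 replication windows (76.9%), against 37.4% of all windows. A CHR and a CCAAT box stood together in 12 of the 16 mitosis windows and in 6.95% of all windows. Several of these genes are the textbook cases from which the elements are known, and windows were not matched for base composition, so the shares are a description.

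**Figure D1:**
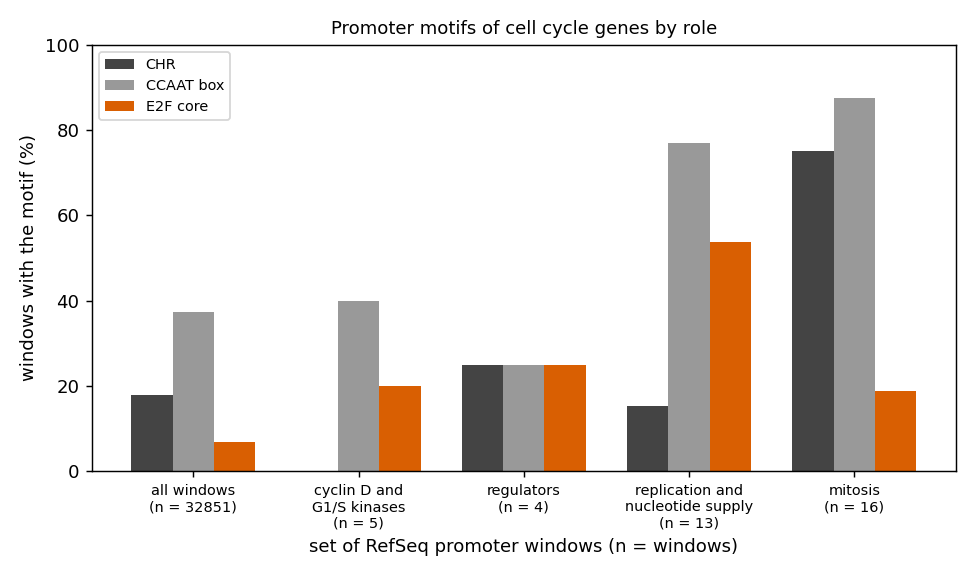
Percentage of promoter windows (y axis) that hold the CHR, a CCAAT box or an E2F core, by role of the member and over all 32851 windows. Mitosis genes have the highest bar for the CHR (75.0%), and replication genes the highest for the E2F core (53.8%).

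Library totals lay between 18064491 and 30036912 estimated counts, and 5.90% to 32.0% of them came from mitochondrially encoded genes. Liver markers were abundant in all 22 libraries: the summed level of 8 hepatocyte markers, led by Alb (albumin), ran from 51350 to 236200 CPM (counts scaled to the effective library size). Of 6 placenta or decidua markers, Prl3d1 was at 0 in all 22 libraries and Psg16 in none. Prl2c2, Prl3b1, Prl8a2 and Tpbpa were at 0 in 15 to 21 libraries, and Tpbpa reached 5.30 CPM. The sum of the 6 stayed between 1.33 and 11.0 CPM, with the highest value in a germ-free non-pregnant library. It reached 4.42 CPM in conventional pregnant and 2.43 CPM in germ-free pregnant livers. In bulk tissue, fewer cells of a type and less RNA per cell cannot be told apart.

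Library conventional pregnant 2 stood apart from the other 21. It had the highest level of all 22 libraries for 36 of the 44 members, among them all 19 mitosis genes, 12 of 13 replication genes and 4 of 5 regulators, but only Ccne1 among the 7 genes of the cyclin D and E group. Its level over the median of the other 4 conventional pregnant libraries had a median ratio of 8.39 for mitosis genes (5.97 to 16.8, highest for Plk1), 4.33 for replication genes (0.847 for Tk1 to 13.9 for Cdc6), 3.29 for regulators and 1.48 for the cyclin D and E group. Its excess was smallest in the cyclin D and E group and largest in the mitosis genes.

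In that library other lists also stood apart. All 10 neutrophil markers were at their highest of 22 there, with a sum of 86.1 CPM against 1.67 to 5.59 CPM in conventional non-pregnant, 2.25 to 4.42 CPM in the other conventional pregnant, 1.59 to 6.10 CPM in libraries of germ-free mice without pregnancy and 1.99 to 6.96 CPM in those of germ-free pregnant mice. The 12 markers of Kupffer cells, the macrophages of the liver, were all at their highest as well, at 1732 CPM against 254 to 863 CPM elsewhere. For T and NK cells 11 of 12 markers were, at 55.6 CPM against 7.02 to 18.3 CPM. Acute phase genes summed to 22700 CPM against 4850 to 10830 CPM, with 7 of 11 at their highest and Hp the most abundant (9737 CPM). Orm1, Fgb, Stat3 and Il6ra were not at their highest, and Il6ra, at 31.2 CPM, lay below the median of each group. The 8 hepatocyte markers (0 of 8 at their highest) summed to 67280 CPM, below the 86660 to 236200 CPM of the other 4 conventional pregnant libraries, with Alb at 50000 CPM against a group median of 123200 CPM. Its mitochondrial share of 5.90% was the lowest. The part of these other cells and of RNA content in its cell cycle levels was not tested.

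Library conventional non-pregnant 6 stood apart in its own group. It was the highest of the 6 for 18 of 19 mitosis genes, at a median of 4.34 times the median of the other 5 (1.66 to 13.7, highest for Cdc20), for 10 of 13 replication genes at a median of 1.48, and for none of the 7 genes of the cyclin D and E group. Its sums for neutrophils (1.97 CPM) and Kupffer cells (489 CPM) lay inside the range of the other 5 libraries of its group. It lay above all 5 for acute phase genes, at 7101 CPM against 4850 to 6478 CPM, and for hepatocyte markers, at 84080 CPM against 59160 to 80540 CPM. It lay below all 5 for T and NK cell markers, at 9.79 CPM against 10.6 to 15.8 CPM, and in its mitochondrial share, at 8.44% against 10.48% to 23.6%. The part of these differences in its mitosis levels was not tested. Because this library raised the non-pregnant group and the other one the pregnant group, changes with pregnancy in conventional mice are given with all libraries, without conventional pregnant 2 and, for counts and for members whose values in each library are given, without both. The last setting was chosen after the levels were seen and removes the 2 libraries with the highest mitosis values, which narrows the spread by construction.

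**Figure D2:**
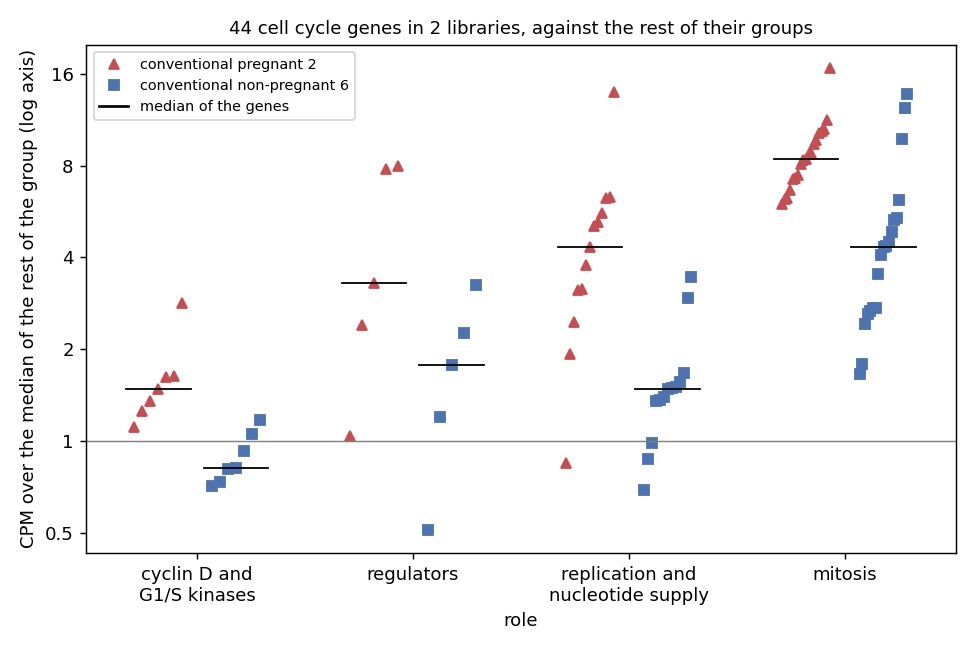
Level of each of the 44 members in conventional pregnant 2 and in conventional non-pregnant 6, divided by the median of the rest of its group (log axis), by role. In both libraries the mitosis genes sit highest (median ratios 8.39 and 4.34) and the cyclin D and E group lowest (1.48 and 0.818). In conventional pregnant 2 the ratios of that group run from 1.11 to 2.84, all above 1.

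**Figure D3:**
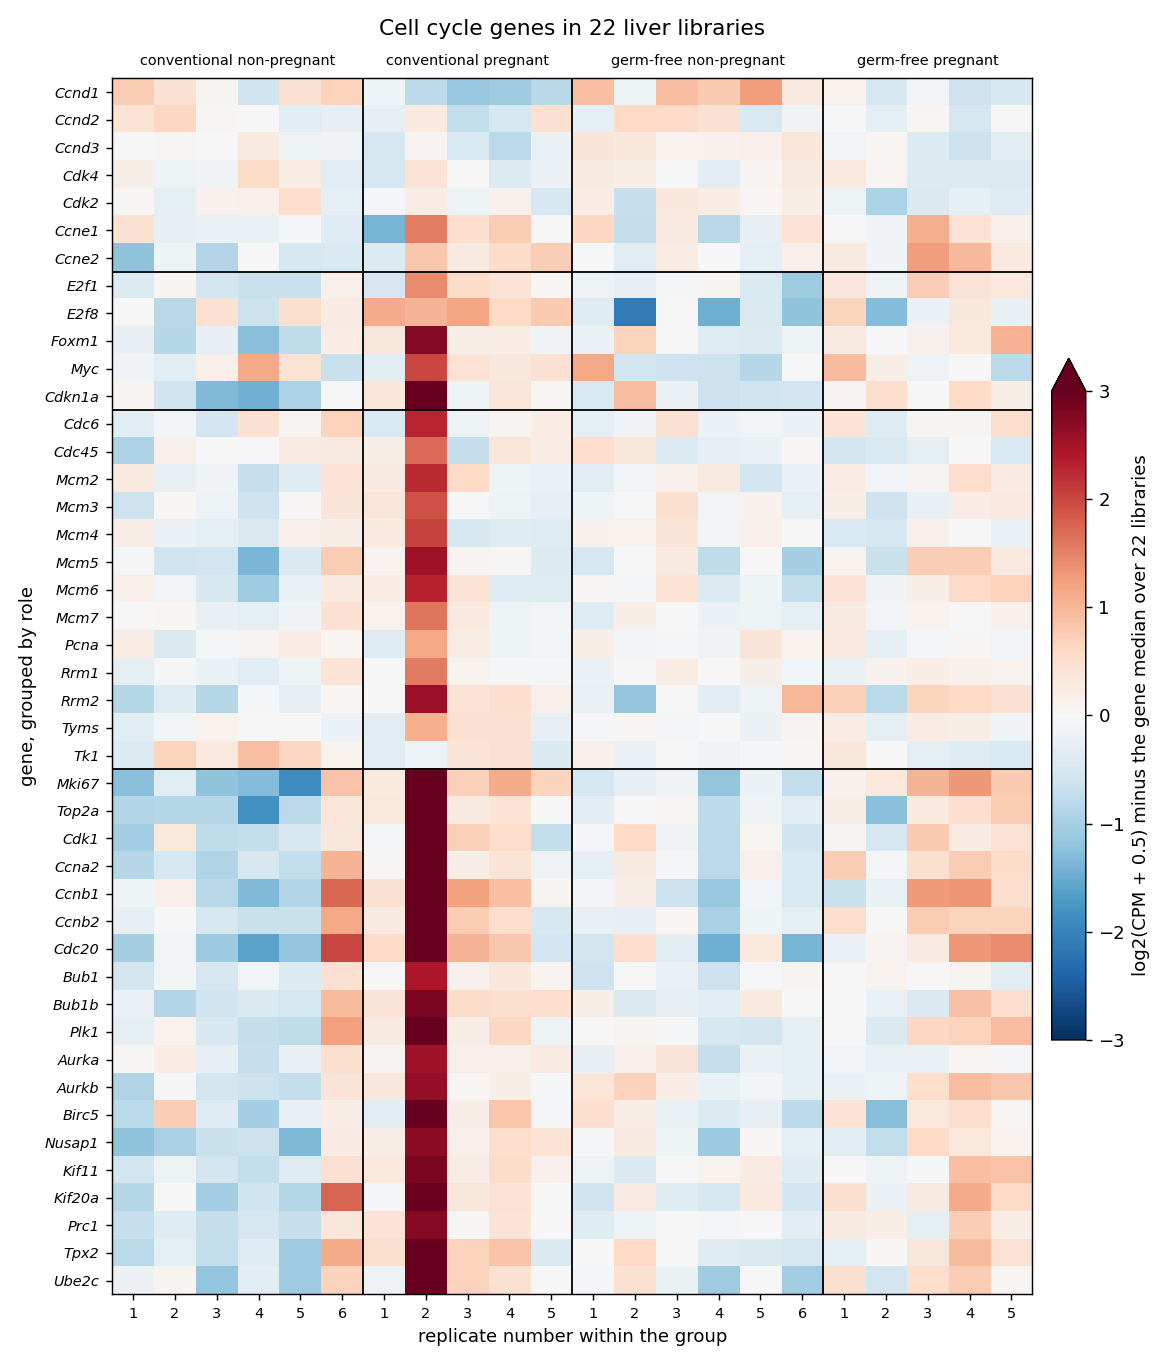
log2(CPM + 0.5) of the 44 members (rows, by role) in the 22 libraries (columns, by group), minus each gene's median over libraries. The column of conventional pregnant 2 is high for replication and mitosis genes, that of conventional non-pregnant 6 for mitosis genes.

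Pregnancy in conventional mice was compared over 6 and 5 libraries with edgeR's quasi-likelihood test, and a gene was called at a Benjamini-Hochberg adjusted p under 0.05 over all 15928 genes tested. Ccnd1, the cyclin D1 gene, was called lower, and 12 of 18 mitosis genes tested were called higher, none of them when conventional pregnant 2 was left out. Of the 42 members tested, 16 were called higher and 1 lower, where 5.49% of all genes were called higher and 3.52% lower. The median log2 change was 1.27 over the 42 members and 0.04 over all genes. Without conventional pregnant 2, 0 members were called higher and 2 lower, against 4.14% and 2.33% of all 16155 genes then tested. An unadjusted p under 0.05 was found for 11 of the 42. The share of all genes at that unadjusted threshold is not given here or below, so such counts are a description. Without that library the median log2 change was 0.39 against 0.01 over all genes, and edgeR was the only tool run on those 21 libraries. Without conventional non-pregnant 6 as well, 9 were called higher and 2 lower, against 5.32% and 3.77% of all genes.

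In germ-free mice the cyclin D1 and cyclin D3 genes fell with pregnancy, and no member was called higher. Of the 42 tested, 2 were called lower, against 3.6% of all genes, and 0 were called higher, against 7.15%. The median log2 change was 0.47 over the members and -0.02 over all genes. An unadjusted p under 0.05 was found for 7 of the 42, given without the share of all genes. DESeq2 also called 0 higher and 2 lower, with no adjusted p for 5 members, whereas limma-voom called 5 higher and 3 lower. The share of all genes called by either tool is not given. When conventional pregnant 2 was left out, which alters the shared estimate of the spread, the scaling and the genes tested but none of the libraries compared here, Mki67 was called higher as well, against 7.94% of all genes higher and 4.43% lower. With both outlying libraries left out, Mki67, Ccna2 (0.76, adjusted p = 0.0334) and Ccnb2 (1.08, adjusted p = 0.0282) were called higher and 2 members lower, the cyclin D1 and D3 genes, against 8.04% and 5.65% of all genes.

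**Figure D4:**
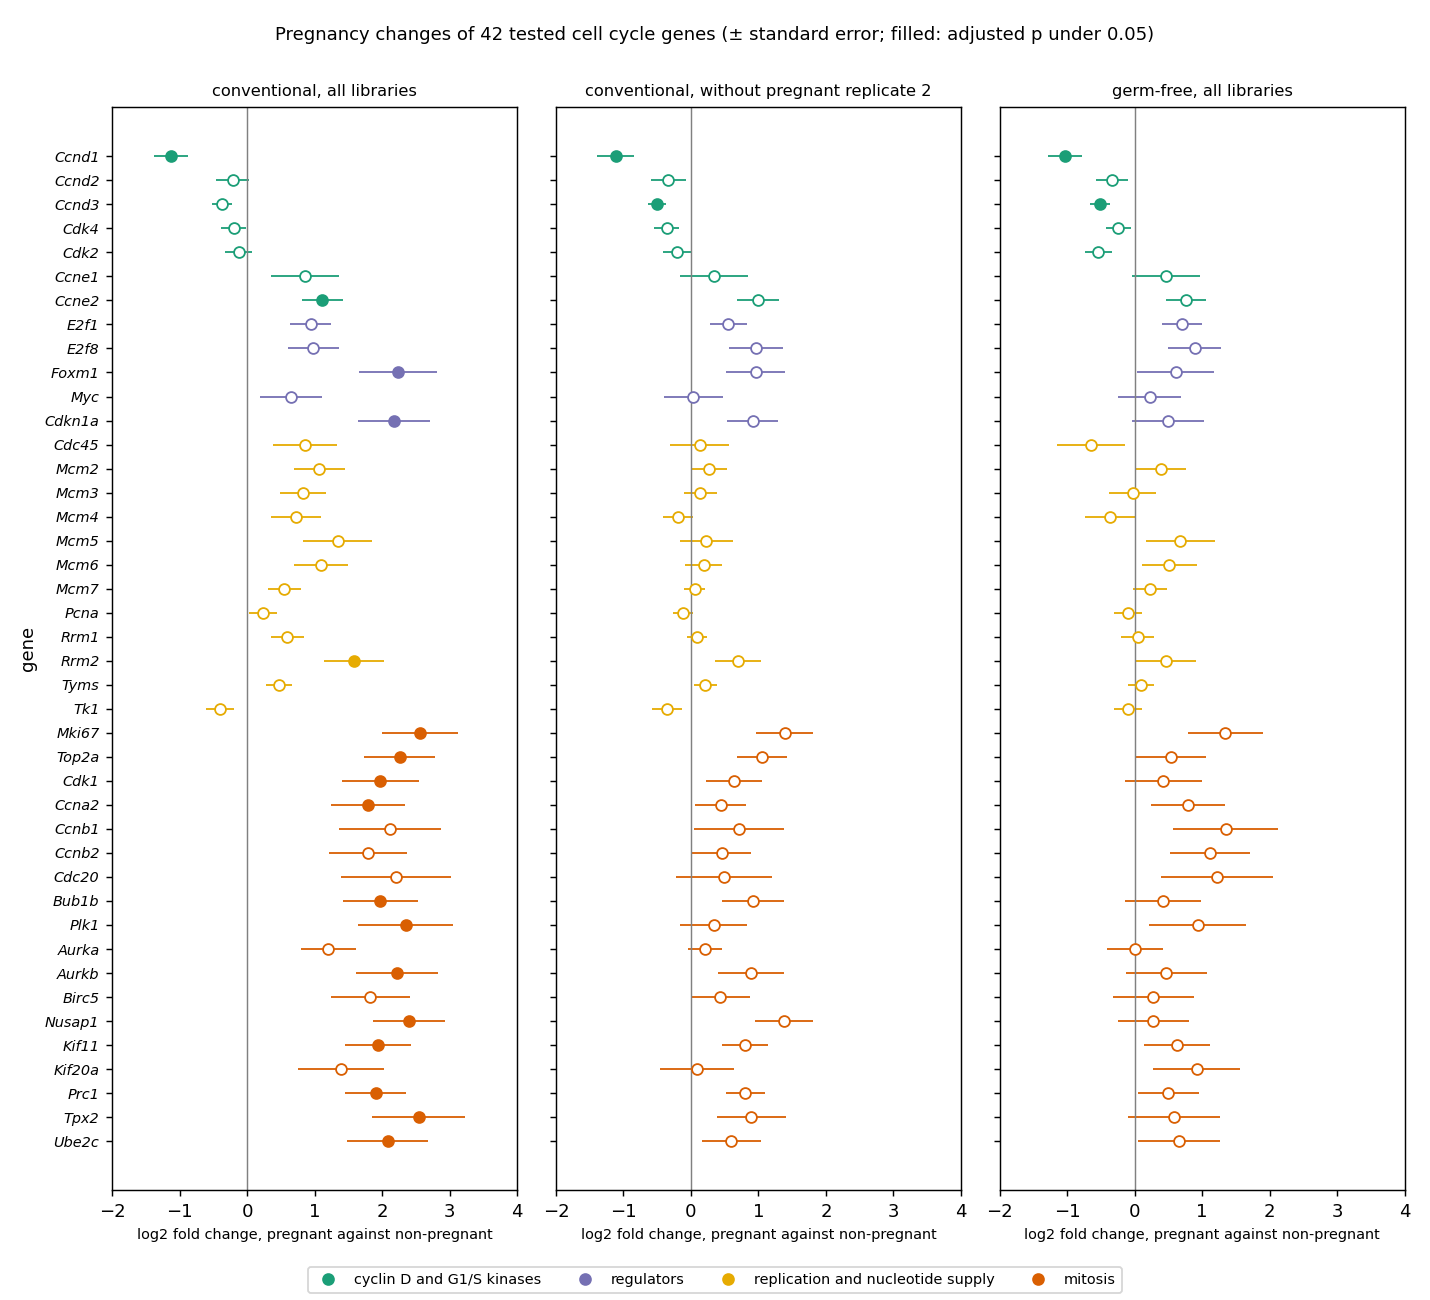
log2 change with pregnancy (± standard error) of the 42 tested members in conventional mice, in conventional mice without conventional pregnant 2, and in germ-free mice; filled points were called. Ccnd1 was called lower in all 3, and the mitosis genes move toward 0 when the library is left out.

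Ccnd1 encodes cyclin D1, the D cyclin of regenerating hepatocytes. Per kilobase of exon it had the highest mean of the 44 members in conventional non-pregnant livers (21.9 CPM per kb) and in germ-free livers without (28.2) and with pregnancy (13.8), and it stood at 10.00 CPM per kb in conventional pregnant livers, where Pcna was at 11.3. Without conventional pregnant 2 Ccnd1 was at 10.08 and Pcna at 8.805 CPM per kb in that group. Cdc6 had the lowest level per kilobase in each group.

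In conventional non-pregnant livers Ccnd1 ran from 52.1 to 135 CPM with a median of 109.4. The 5 conventional pregnant libraries had 72.4, 45.5, 35.6, 37.7 and 44.2 CPM. All but 1 non-pregnant library, conventional non-pregnant 4, lay above every pregnant one. Ccnd1 fell by 1.13 ± 0.25 on the log2 scale (adjusted p = 0.00555), by 1.12 ± 0.28 without conventional pregnant 2 (adjusted p = 0.014), and by 1.08 ± 0.29 without both outlying libraries (adjusted p = 0.0205).

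The same gene ran from 71.3 to 191 CPM in germ-free non-pregnant livers, with a median of 143 CPM. The 5 germ-free pregnant libraries had 85.5, 56.2, 74.5, 51.4 and 56.6 CPM. The groups overlapped through germ-free non-pregnant 2, the lowest of its group. Ccnd1 fell by 1.03 ± 0.25 (adjusted p = 0.00831), and its call held in each of 33 other settings in both microbiota states.

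Ccnd3, for cyclin D3, ran from 30.7 to 41.3 CPM in conventional non-pregnant livers (median 34.0). In conventional pregnant livers it was at 23.9, 35.8, 24.5, 19.1 and 29.7 CPM, so that all but conventional pregnant 2 lay below every non-pregnant library. Its change of -0.37 ± 0.14 was not called with all libraries (adjusted p = 0.116); without that library it fell by 0.50 ± 0.14 (adjusted p = 0.0304), and without both by 0.56 ± 0.15 (adjusted p = 0.0187).

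In germ-free livers Ccnd3 ran from 36.6 to 44.8 CPM (median 40.3) without pregnancy and stood at 32.1, 35.2, 25.4, 21.4 and 27.4 CPM with it. The groups did not overlap. It fell by 0.52 ± 0.14 (adjusted p = 0.021). The call ended without germ-free pregnant 3 (adjusted p = 0.0652) or germ-free pregnant 4 (adjusted p = 0.075).

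Ccne2, for cyclin E2, moved the other way from the D cyclins in conventional mice. It ran from 0.890 to 2.73 CPM without pregnancy (median 1.78) and stood at 1.91, 5.12, 3.34, 4.21 and 4.86 CPM with it, where all but conventional pregnant 1 exceeded every non-pregnant library. The log2 change was 1.11 ± 0.30 (adjusted p = 0.0209), 0.99 without conventional pregnant 2 (adjusted p = 0.0619) and 0.96 without both (adjusted p = 0.0808). The call also ended without conventional non-pregnant 3 (adjusted p = 0.0517) or conventional pregnant 5 (adjusted p = 0.0529).

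In germ-free pregnant livers Ccne2 was at 3.37, 2.49, 7.16, 5.83 and 3.45 CPM, against 2.05 to 3.26 CPM (median 2.67) without pregnancy, and its change of 0.76 ± 0.30 was not called (adjusted p = 0.111). The remaining genes of this group were Ccnd2 (cyclin D2), the kinase genes Cdk4 and Cdk2, and Ccne1 (cyclin E1), and none of them was called in either comparison. Their log2 changes ran from -0.21 (Ccnd2) to 0.85 (Ccne1) in conventional mice and from -0.54 (Cdk2) to 0.47 (Ccne1) in germ-free mice. Among the 7 genes, 5 had values below 0 in each microbiota state, the 3 D cyclins, Cdk4 and Cdk2.

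**Figure D5:**
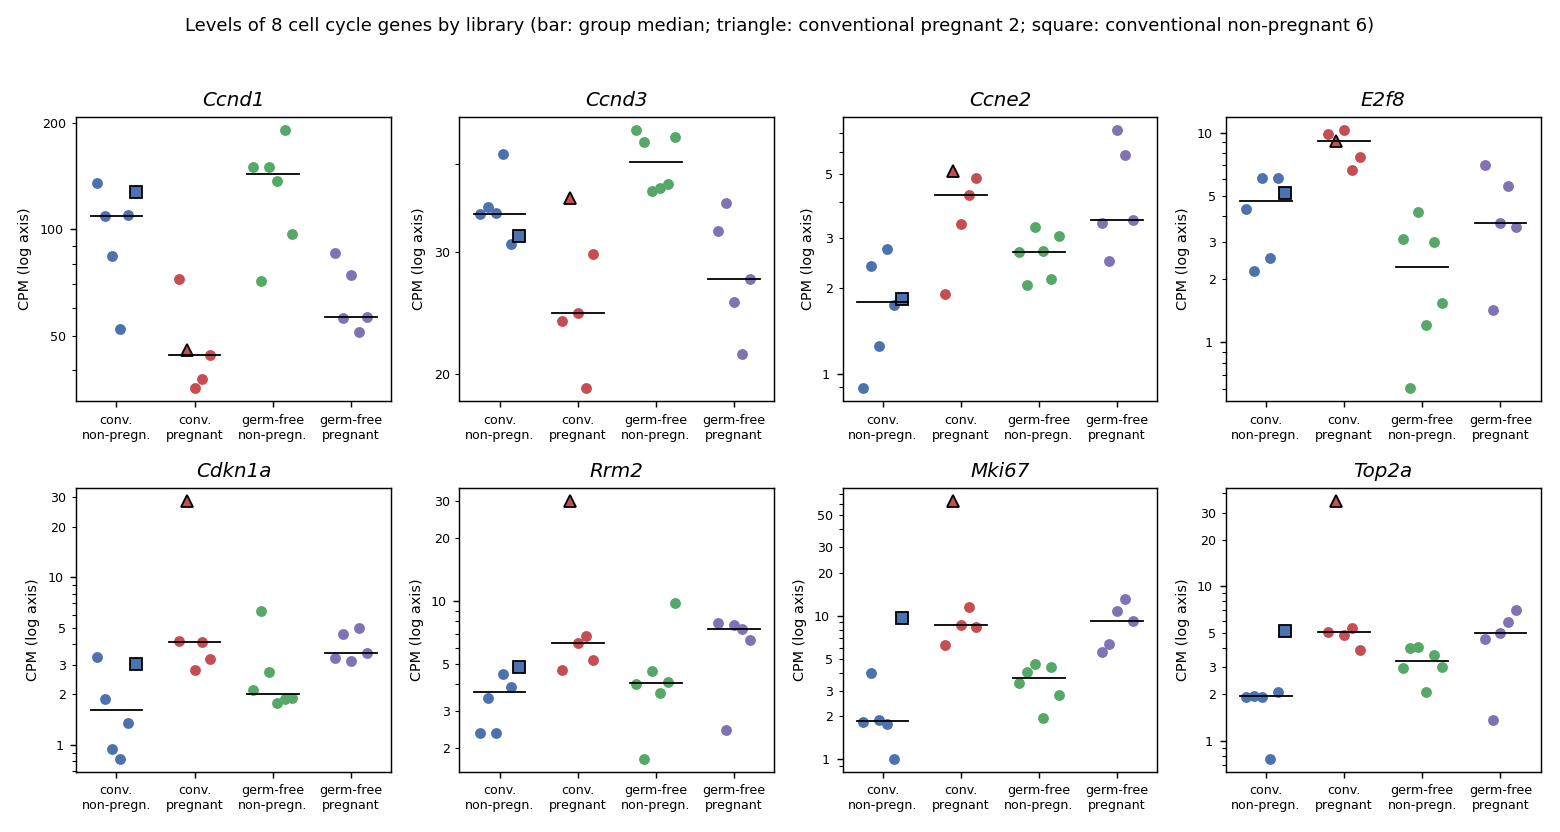
CPM (log axis) of 8 members in each library, by group; the bar is the group median, the triangle conventional pregnant 2 and the square conventional non-pregnant 6. Ccnd1 and Ccnd3 are lower with pregnancy in both microbiota states, while the triangle lies far above its group for Cdkn1a, Rrm2, Mki67 and Top2a and not for Ccnd1.

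Of the 5 regulators, Cdkn1a and Foxm1 were called higher with pregnancy in conventional mice, and both values rested on 1 library. Cdkn1a encodes p21, an inhibitor of cyclin-dependent kinases that p53 induces. It ran from 0.825 to 3.34 CPM without pregnancy (median 1.61) and stood at 28.7 CPM in conventional pregnant 2 and at 2.78 to 4.15 CPM in the other 4 pregnant livers. Its log2 change was 2.18 ± 0.54 (adjusted p = 0.011), 0.91 without that library (adjusted p = 0.172) and 1.06 without both (adjusted p = 0.0895).

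Foxm1, the factor that drives genes of mitosis, was at 9.50 CPM in conventional pregnant 2 and at 0.889 to 1.37 CPM in the other 4, against 0.127 to 1.23 CPM without pregnancy. The log2 change of 2.24 ± 0.57 (adjusted p = 0.0152) became 0.96 without the library (adjusted p = 0.239) and 1.25 without both (adjusted p = 0.0736). In germ-free mice the change of Cdkn1a was 0.49 ± 0.53 (adjusted p = 0.626) and that of Foxm1 0.61 ± 0.57 (adjusted p = 0.562). Germ-free pregnant livers had 3.30, 4.61, 3.16, 5.00 and 3.55 CPM of Cdkn1a, against 1.79 to 6.32 CPM without pregnancy (median 2.02).

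Myc, a transcription factor that responds to growth signals early, ran from 2.07 to 8.51 CPM in conventional non-pregnant livers (median 3.67) and was at 2.74, 15.9, 5.00, 4.67 and 5.07 CPM in pregnant ones. Its log2 change was 0.65 ± 0.46 (adjusted p = 0.456), 0.04 without conventional pregnant 2 (adjusted p = 0.985) and -0.14 without both (adjusted p = 0.902). Germ-free livers had 1.75 to 8.52 CPM without and 1.87 to 7.34 CPM with pregnancy (0.22 ± 0.47, adjusted p = 0.827). Myc levels overlapped between the groups in both microbiota states.

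E2f8 differed from the other regulators in that conventional pregnant 2 did not stand out. Conventional non-pregnant livers had 2.19 to 6.12 CPM (median 4.74), and the pregnant ones had 9.83, 9.10, 10.3, 6.65 and 7.68 CPM. The groups did not overlap, yet the log2 change of 0.98 ± 0.38 was not called (adjusted p = 0.118); without conventional pregnant 2 it was 0.96 (adjusted p = 0.189), and without both 0.97 (adjusted p = 0.184). The germ-free change was 0.89 ± 0.40 (adjusted p = 0.165), from 0.604 to 4.19 CPM without pregnancy to 7.04, 1.43, 3.72, 5.56 and 3.55 CPM with it. E2f1, an E2F factor that activates replication genes, had log2 changes of 0.94 ± 0.30 (adjusted p = 0.0504) in conventional and 0.70 ± 0.30 (adjusted p = 0.147) in germ-free mice.

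Among 12 replication genes tested, Rrm2 alone was called higher with pregnancy in conventional mice, and none in germ-free mice. Rrm2 encodes the regulated subunit of ribonucleotide reductase, which makes deoxynucleotides. Its levels were 2.35 to 4.82 CPM without pregnancy (median 3.67) and 4.68, 30.1, 6.34, 6.79 and 5.23 CPM with it. Its log2 change was 1.58 ± 0.45 (adjusted p = 0.0268), 0.70 without conventional pregnant 2 (adjusted p = 0.287) and 0.76 without both (adjusted p = 0.215). The call also ended without conventional non-pregnant 1 (adjusted p = 0.0577) or 3 (adjusted p = 0.0611).

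The median log2 change of the 12 replication genes in conventional mice was 0.78 with all libraries, 0.13 without conventional pregnant 2 and 0.18 without both, and 9 of 12 values were above 0 in each of the last 2 settings. In germ-free mice it was 0.07, with 7 of 12 above 0 and none with an unadjusted p under 0.05. The helicase subunit gene Mcm2 was at 3.19, 13.9, 4.17, 2.30 and 2.19 CPM in conventional pregnant livers, against 1.40 to 3.59 CPM without pregnancy (median 2.27). Its change was 1.07 ± 0.38 (adjusted p = 0.0778), 0.27 without conventional pregnant 2 (adjusted p = 0.682), 0.37 without both (adjusted p = 0.451), and 0.38 ± 0.38 in germ-free mice (adjusted p = 0.591).

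Pcna, the sliding clamp of DNA polymerases, was at 17.2, 50.8, 26.1, 20.1 and 21.2 CPM in conventional pregnant livers and at 16.6 to 26.3 CPM in non-pregnant ones (median 23.5). Apart from conventional pregnant 2, its pregnant levels lay within the non-pregnant range. The log2 change was 0.24 ± 0.21 (adjusted p = 0.563), -0.12 without that library (adjusted p = 0.754), -0.16 without both (adjusted p = 0.618), and -0.10 ± 0.21 in germ-free mice (adjusted p = 0.824). The other helicase genes Mcm3 to Mcm7, the initiation gene Cdc45, the reductase subunit gene Rrm1 and the thymidylate synthase gene Tyms had changes from 0.47 (Tyms) to 1.34 (Mcm5) in conventional mice and from -0.65 (Cdc45) to 0.68 (Mcm5) in germ-free mice.

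Tk1, for thymidine kinase of the salvage route, was the replication gene that did not follow the others in conventional pregnant 2. It was at 22.7, 25.4, 37.4, 38.7 and 20.7 CPM in conventional pregnant livers and at 21.1 to 53.4 CPM in non-pregnant ones (median 39.3). Its log2 change was -0.40 ± 0.21 (adjusted p = 0.268), -0.35 without conventional pregnant 2 (adjusted p = 0.442) and -0.46 without both outlying libraries (adjusted p = 0.259). Tk1 overlaps Afmid in the annotation, and the library kit does not mark strand, so reads of the overlap cannot be told apart. Cdc6, which did not pass the filter, had 0 to 14 counts in 21 libraries and 71 in conventional pregnant 2. Fitted without a filter, its log2 changes were 1.45 ± 0.79 (adjusted p = 0.432) in conventional and 0.58 in germ-free mice (adjusted p = 0.789).

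Genes of mitosis carried most of the calls: 12 of the 18 tested were called higher with pregnancy in conventional mice. All 18 had log2 changes above 0, from 1.20 (Aurka) to 2.56 (Mki67), with a median of 2.03. Without conventional pregnant 2, all 18 still lay above 0, from 0.09 (Kif20a) to 1.39 (Mki67), with a median of 0.67, and none was called. Of these, 5 had an unadjusted p under 0.05, given without the share of all genes. Without both outlying libraries the median was 1.08 and 9 of 18 were called higher. In germ-free mice all 18 lay above 0 as well, from 0.01 (Aurka) to 1.35 (Ccnb1), with a median of 0.61, and none was called; with both outlying libraries left out 17 of 18 lay above 0. These genes share the 22 libraries and their scaling, so their common sign is a description.

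Mki67 was at 1.01 to 9.65 CPM in conventional non-pregnant livers with a median of 1.86, the highest in conventional non-pregnant 6. The pregnant livers had 6.30, 63.4, 8.62, 11.6 and 8.42 CPM. Leaving both outlying libraries aside, each pregnant library (6.30 CPM or more) lay above each non-pregnant one (3.98 CPM or less). Its change was 2.56 ± 0.56 (adjusted p = 0.00476) with all libraries, missed the call without conventional pregnant 2 at 1.39 ± 0.42 (adjusted p = 0.0528), and was 2.02 ± 0.33 without both (adjusted p = 0.000305).

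In germ-free mice Mki67 ran from 1.95 to 4.62 CPM without pregnancy (median 3.71) and was at 5.57, 6.41, 10.8, 13.1 and 9.15 CPM with it. The groups did not overlap. The log2 change of 1.35 ± 0.55 was not called with all libraries (adjusted p = 0.131), and it rose by 1.35 ± 0.41 when conventional pregnant 2 no longer entered the shared spread (adjusted p = 0.0299). Counts of Mki67 were 28 to 332 in 21 libraries and 1449 in conventional pregnant 2.

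Top2a was at 5.06, 36.0, 4.84, 5.36 and 3.87 CPM in conventional pregnant livers and at 0.762 to 5.17 CPM in non-pregnant ones (median 1.94), where conventional non-pregnant 6 was again the highest. Its change was 2.26 ± 0.52 (adjusted p = 0.00735), 1.05 without conventional pregnant 2 (adjusted p = 0.0986) and 1.41 without both libraries (adjusted p = 0.00808). In germ-free livers it was at 2.05 to 4.07 CPM without pregnancy and at 4.53, 1.37, 4.97, 5.83 and 7.04 CPM with it (0.54 ± 0.52, adjusted p = 0.578). Germ-free pregnant 2, the lowest of its group, lay below every germ-free non-pregnant library.

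Nusap1, for a protein that bundles spindle microtubules, was at 1.87, 12.8, 1.78, 2.47 and 2.25 CPM in conventional pregnant and at 0.315 to 1.97 CPM in conventional non-pregnant livers. Its change was 2.40 ± 0.53 (adjusted p = 0.00542), 1.38 without conventional pregnant 2 (adjusted p = 0.0549) and 1.83 without both (adjusted p = 0.00421). In germ-free mice the change was 0.28 ± 0.53 (adjusted p = 0.804). Mki67, Top2a and Nusap1 kept their calls in 32 of 33 other settings, all but the one without conventional pregnant 2.

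The other 9 mitosis genes called in conventional mice were the spindle genes Tpx2 (log2 change 2.54), Kif11 (1.94) and Prc1 (1.90), the kinase genes Plk1 (2.35), Aurkb (2.22), Bub1b (1.97) and Cdk1 (1.97), the cyclin A2 gene Ccna2 (1.79), and Ube2c (2.08), whose product tags cyclins for destruction. Without conventional pregnant 2 none was called. Plk1 went to 0.34 (adjusted p = 0.805) and Prc1 to 0.81 (adjusted p = 0.098). Without both outlying libraries Prc1 (1.06), Kif11 (1.07), Tpx2 (1.64), Bub1b (1.52) and Ccna2 (1.00) were called, together with Cdc20 (1.83, adjusted p = 0.0392), which activates the anaphase-promoting complex.

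The calls of Ccna2, Cdk1, Plk1, Ube2c, Bub1b and Aurkb also ended when conventional non-pregnant 3, 4 or 5 was left out, with adjusted p from 0.0528 to 0.0886. Their log2 changes moved little there, to 2.17 to 2.22 for Plk1 and 1.87 to 1.93 for Cdk1, unlike the change of Plk1 to 0.34 without conventional pregnant 2. Leaving out conventional non-pregnant 1 ended those of Ccna2, Cdk1, Plk1, Ube2c and Aurkb, and leaving out conventional non-pregnant 2 those of Ccna2, Plk1 and Bub1b. The 6 mitosis genes tested and not called in the full set were Ccnb1, Ccnb2, Cdc20, Aurka, Birc5 and Kif20a, with changes from 1.20 (Aurka) to 2.21 (Cdc20). Bub1, which did not pass the filter, had 1 to 17 counts in 21 libraries and 96 in conventional pregnant 2. Its change fitted without a filter was 2.11 ± 0.66 (adjusted p = 0.075).

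Both outlying libraries carried the age label 70, as did conventional non-pregnant 1 and conventional pregnant 1. Among conventional mice of label 77, Mki67 was at 1.01 to 3.98 CPM in 4 non-pregnant and at 8.42 to 11.6 CPM in 3 pregnant livers. At label 70 it was at 1.82 and 9.65 CPM without and at 6.30 and 63.4 CPM with pregnancy. Ccnd1 was at 52.1 to 109.7 CPM against 35.6 to 44.2 CPM at label 77 and at 128 to 135 CPM against 45.5 to 72.4 CPM at label 70, and the groups did not overlap within either label. With age as a covariate in a fit of the 2 groups alone, 6 members were called higher and 1 lower in conventional mice, against 3.9% and 3.23% of all genes, and 2 higher and 2 lower in germ-free mice, against 7.26% and 4.64%. The same fit without age called 4 higher and 1 lower in conventional mice, against 3.38% and 2.67% of all genes, and 2 higher and 2 lower in germ-free mice, against 8.42% and 5.31%.

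In the comparison of germ-free with conventional mice, no member was called without pregnancy or with it. In non-pregnant mice 0 of 42 members were called by edgeR, DESeq2 or limma-voom, where edgeR called 0.157% of all genes. DESeq2 gave no adjusted p for 5 members. Of the 42 members, 2 had an unadjusted p under 0.05. These were E2f8 (-0.94 ± 0.38, adjusted p = 0.621) and Tk1 (-0.45 ± 0.20, adjusted p = 0.703). Ccnd1 had a change of 0.37 ± 0.24 (adjusted p = 0.963) and Mki67 of 0.09 ± 0.54 (adjusted p = 0.999).

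In pregnant mice 0 of 42 members were called by the same 3 tools, where edgeR called 0.132% of all genes at the adjusted threshold. DESeq2 again gave no adjusted p for 5 members. An unadjusted p under 0.05 was found for 13 of the 42. The share of all genes at that unadjusted threshold is not given, so the 13 are a description. All 18 mitosis genes were below 0, with a median log2 change of -1.29. Aurka, a spindle pole kinase gene, was the member whose groups did not overlap (-1.29 ± 0.43, adjusted p = 0.303). It was at 2.61, 16.5, 2.78, 2.75 and 2.98 CPM in conventional and at 2.26, 2.06, 2.04, 2.57 and 2.35 CPM in germ-free pregnant livers. The lowest conventional value, 2.61 CPM, lay close to the highest germ-free value, 2.57 CPM, and neither came from conventional pregnant 2. How many of all genes had no overlap was not counted.

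The fall of the mitosis genes as a set rested on conventional pregnant 2. Without it the median of the 18 mitosis genes was 0.05 (11 of 18 above 0), and 1 of 42 members had an unadjusted p under 0.05. Mki67 went from -1.12 ± 0.57 to 0.05 ± 0.44, and Top2a from -1.21 to -0.01. E2f8 kept its value, at -1.03 ± 0.41 with all libraries (adjusted p = 0.376) and -1.02 without that library (adjusted p = 0.582). Ccnd1 was at 0.46 ± 0.26 (adjusted p = 0.541) and 0.45.

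The interaction asks whether the change with pregnancy differed between germ-free and conventional mice, and it shares all libraries with the comparisons above. It was called for 0 of 42 members and for 0.0% of all genes by edgeR, and for 0 members by DESeq2 and limma-voom. As in the other comparisons, DESeq2 gave no adjusted p for 5 of the members. Unadjusted p under 0.05 was reached by 5 members, Cdkn1a, Cdc45, Top2a, Nusap1 and Prc1, with values from -2.12 (Nusap1) to -1.41 (Prc1) and adjusted p = 0.863 for each. Without conventional pregnant 2 no member reached it. The share of all genes at that unadjusted threshold is not given here either. The difference for Mki67 was -1.22 ± 0.78 (adjusted p = 0.887) with all libraries and -0.04 without that library, and for Ccnd1 it was 0.09 ± 0.35 (adjusted p = 0.977).

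Other genes of the same pathways were read from lists beside the 44 members. Of all genes, 5.49% were called higher and 3.52% lower with pregnancy in conventional mice, and 7.15% and 3.6% in germ-free mice. Without conventional pregnant 2 the shares were 4.14% and 2.33% in conventional and 7.94% and 4.43% in germ-free mice. Without both outlying libraries they were 5.32% and 3.77%, and 8.04% and 5.65%. Counts of a few genes in these lists are a description beside those shares. Of 51 other mitosis genes tested, 21 rose and none fell with pregnancy in conventional mice, led by the checkpoint kinase gene Ttk (2.79) and the kinase gene Pbk (2.76), against 2 higher without conventional pregnant 2. Those were Ccnf, for cyclin F (1.36, adjusted p = 0.00316), and Lmnb1, for lamin B1 (1.02, adjusted p = 0.00663). Ccnf rose in germ-free mice as well (1.46 ± 0.27, adjusted p = 0.000721), where Pttg1, for securin, fell by 0.81 ± 0.22 (adjusted p = 0.0178). Without both outlying libraries 10 of 50 rose in conventional mice, among them Ttk (2.28) and Cenpf (1.79), a kinetochore gene, and Pttg1 fell by 0.77. In germ-free mice leaving out conventional pregnant 2 added Hmmr (1.23, adjusted p = 0.0479) as higher and the kinetochore gene Spc24 (-0.63, adjusted p = 0.0175) as lower, and leaving out both also added Ckap2 (1.41, adjusted p = 0.0366) as higher. Conventional pregnant 2 was the highest of 22 libraries for 51 of the 53 listed, and conventional non-pregnant 6 the highest of its group for 45.

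Of 30 other replication genes, 3 rose in conventional mice: Uhrf1 (1.82) and Dbf4 (1.35), which had the largest changes, and Cdt1 (1.19). None was called without conventional pregnant 2, and without both outlying libraries Cdt1 (1.14) rose and Gmnn fell by 0.71. In germ-free mice Cdt1, a licensing factor gene, rose by 1.41 ± 0.32 (adjusted p = 0.00454), while Gmnn, for its inhibitor geminin, fell by 0.76 ± 0.22 (adjusted p = 0.0234) and the polymerase subunit gene Pola2 fell by 0.66 ± 0.19 (adjusted p = 0.022). The germ-free calls went from 3 to 5 without conventional pregnant 2, with Fen1, a flap endonuclease gene (0.77 ± 0.20, adjusted p = 0.011), added as higher and the initiation gene Mcm10 (-0.62 ± 0.16, adjusted p = 0.0108) as lower. Of 22 other genes of G1/S control, E2f2 (2.09 ± 0.44, adjusted p = 0.0029) and the inhibitor gene Cdkn2c (0.61) rose in conventional mice. E2f2 remained called without conventional pregnant 2 (1.85, adjusted p = 0.0109) and without both outlying libraries (2.05, adjusted p = 0.00624), and none was called in germ-free mice.

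Of 12 p53 target genes beside Cdkn1a, 3 rose with pregnancy in conventional mice, led by Eda2r (2.64) and Btg2 (1.19). Without conventional pregnant 2 the calls were Eda2r (2.57) and Zmat3 (0.44), without both Eda2r alone (2.60), and in germ-free mice none was called. Trp53inp1 was higher in germ-free than in conventional non-pregnant mice (1.15 ± 0.24, adjusted p = 0.0493). Of 13 growth factor and immediate early genes, Ier3 (2.14) and Atf3 (1.94) rose, and Tgfa, for a growth factor that acts on the EGF receptor, fell by 0.63 and Met, for the hepatocyte growth factor receptor, by 0.47. Without conventional pregnant 2 Tgfa alone was called (-0.76, adjusted p = 0.01), as it was without both (-0.73, adjusted p = 0.0133), and in germ-free mice none was.

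Of 11 acute phase genes 6 rose in conventional mice, led by Saa3 (5.48) and Saa2 (4.90), 2 without conventional pregnant 2 (Stat3, 0.68, and Il6ra, 0.68), and 1 without both outlying libraries (Stat3, 0.87). In germ-free mice 3 rose, led by Orm1 (0.90) and Fgb (0.83). There Lcn2, for lipocalin 2, had the largest change, 2.33 ± 0.99, which was not called with all libraries (adjusted p = 0.142). In germ-free mice 7 were called higher without conventional pregnant 2, with Lcn2 (2.33 ± 0.43, adjusted p = 0.000693), Orm2 (1.47), Hp (0.75) and Il6ra (0.69) added.

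Markers of other cells were read beside the pregnancy changes. The shares of all genes called, given above for the pathway lists, apply to these counts too. Of 8 hepatocyte markers in conventional mice Alb, the most abundant (1.25), and Tat (0.81) rose and Ttr and Fah fell, by 1.46 and 0.65; in germ-free mice 4 rose, Alb (1.13) among them, and 1 fell, Ttr by 1.69. In conventional mice Alb, Tat and Ttr were called without conventional pregnant 2, and without both outlying libraries Serpina1a (0.65) was called higher as well. Of 11 erythroid markers tested, Alas2 (1.45) and Slc4a1 (2.75) rose in conventional mice, and 7 rose in germ-free mice, among them Hba-a2 (1.77) and Slc4a1 (4.53). The erythroid sum, most of it globin, was 480 to 875 CPM without and 394 to 2301 CPM with pregnancy in conventional mice, and 259 to 1802 CPM without and 1782 to 3612 CPM with it in germ-free mice. Erythroid precursors divide, and their part in the cell cycle levels was not tested.

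Of 4 neutrophil markers tested Prtn3 (4.21) and Il1b (3.50), the most abundant of the list in conventional pregnant 2, rose in conventional mice; none did without that library or in germ-free mice. None of 12 Kupffer cell markers, 11 T and NK cell markers, 8 B and plasma cell markers and 1 placental marker was called with pregnancy. In conventional pregnant 2 these lists were led by Cd5l (404 CPM), Gzma (13.3 CPM), Ighm (7.57 CPM) and Psg16 (2.06 CPM). Of 9 endothelial markers 1 was called, Stab2, in germ-free mice (0.39), while Eng was the most abundant, at a median of 57.8 CPM in conventional non-pregnant livers. Of 9 stellate cell and fibroblast markers, led by Dcn at a median of 105 CPM in conventional non-pregnant livers, Col3a1 rose in conventional mice (1.07) and Lrat fell in both, by 1.21 in conventional and 1.30 in germ-free mice. Of 5 cholangiocyte markers Spp1, the most abundant, fell by 1.07 in both, and Krt19 rose in germ-free mice (3.10). The medians of Krt19 there were 1.66 CPM without and 2.83 CPM with pregnancy, while its highest level in the 22 libraries was 62.8 CPM. The sum of the 6 cholangiocyte markers listed had a median of 25.8 CPM in germ-free pregnant livers, and its highest value there was 138 CPM.

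Ccnd1 (ENSMUSG00000070348.5) lies at chr7:144929931-144939925 on the minus strand of GRCm38, Ccnd3 at chr17:47505051-47599691 on the plus strand, Mki67 at chr7:135689784-135716361 and Top2a at chr11:98992943-99024189, both on the minus strand. The annotation overlaps Ccnd1 with LTO1, Ccnd3 with Bysl, Ccne2 with Ints8, Ccna2 with Exosc9, Cdc20 with Elovl1, Nusap1 with Oip5 and Prc1 with Rccd1. It also overlaps Ube2c with Tnnc2, Foxm1 with Tex52, Cdkn1a with AC167363.2, Mki67 with Gm45240, Plk1 with Gm44985 and Mcm7 with Cops6. The list is not complete, as further members overlap other genes. Reads of such overlaps cannot be told apart.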

How the data were processed

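Liver RNA-seq of 22 mice was read from 1 table of estimated counts per gene, which the authors deposited unscaled. Per the submitters' processing notes, the authors used Salmon 0.11.3, edgeR 3.24.3 and GRCm38.p6; per the labels' protocols, total RNA was sequenced from NEBNext Ultra RNA libraries, a kit that does not mark strand. Salmon divides reads shared by transcripts, and 14.7% to 26.3% of a library's values were not whole. Estimated counts were rounded, which moved 0.00829% of them. Of the identifiers, 97.7% matched GENCODE M21 version included, and 99.93% when the version was disregarded. In 50 pairs of libraries of one group no pair was a repeat (lowest mean chi-square per gene 36.1). No interval or floor is given for single counts.

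Genes passed edgeR 4.0.16's default filter (minimum count 10, total 15), leaving 15928. Libraries were scaled by TMM and fitted with a quasi-likelihood model, 1 term per group over all 22 libraries (R 4.3.3). Standard errors are |log2 change| over the root of F. The script was tested on simulated data. The 5 comparisons were pregnancy in each microbiota state, germ-free status without and with pregnancy, and their interaction. In all, 33 other settings were tried, among them DESeq2 1.42.0, limma 3.58.1 (voom), other size factors, filters, an age term and each library left out.

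Each role's called members with the 3 lowest adjusted p are given in full, other called members by name, the rest by range; Mki67, Top2a, Mcm2, Pcna, Ccnd1, Cdkn1a and Myc always; per pathway list the 2 largest called changes in each direction; per marker list the most abundant gene and up to 3 called. Genes named beyond this rule were chosen after their values were seen. For members with an unadjusted p under 0.05 and for groups without overlap, no share of all genes is given, so these are a description. The members and lists were chosen with earlier results of these data known.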

Additional observations from a re-analysis of the deposited data

Results flagged for a closer look

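Within each group, a library was singled out for a member when its gap to the nearest other library was large for the group's range. The rule was Dixon's criterion, which chance meets in about 1 in 20 sets of independent, normally distributed values. Whether CPM follow such a distribution was not tested. The sets also share the same 22 libraries, so the number of sets that met the criterion is a description. Over 176 sets of a member and a group, 59 met it, 33 of them by conventional pregnant 2 and 13 by conventional non-pregnant 6. Values are CPM of the library named.

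Conventional pregnant 2 was high among the regulators for Foxm1 (9.50), Myc (15.9) and Cdkn1a (28.7). Among replication genes it was high for Cdc6 (3.11), Cdc45 (3.68), Mcm2 (13.9), Mcm3 (16.1), Mcm4 (13.6), Mcm5 (19.6), Mcm6 (26.0), Mcm7 (27.8), Pcna (50.8), Rrm1 (24.3) and Rrm2 (30.1). It was high for all 19 mitosis genes: Mki67 (63.4), Top2a (36.0), Cdk1 (20.3), Ccna2 (24.3), Ccnb1 (19.3), Ccnb2 (14.3), Cdc20 (43.5), Bub1 (4.20), Bub1b (9.63), Plk1 (19.7), Aurka (16.5), Aurkb (6.83), Birc5 (21.4), Nusap1 (12.8), Kif11 (12.2), Kif20a (15.9), Prc1 (15.0), Tpx2 (21.0) and Ube2c (26.4).

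Conventional non-pregnant 6 was high for Rrm1 (10.6) and for 12 mitosis genes: Mki67 (9.65), Top2a (5.17), Ccna2 (5.61), Ccnb1 (4.67), Ccnb2 (3.30), Cdc20 (10.4), Bub1b (2.26), Plk1 (2.85), Nusap1 (1.97), Kif20a (6.54), Prc1 (2.46) and Tpx2 (3.05).

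The other 13 were spread over 9 libraries. Conventional non-pregnant 1 was high for Ccne1 (1.87) and low for Cdc45 (0.178), and conventional pregnant 1 was high for Ccnd1 (72.4). Germ-free non-pregnant 2 was low for Cdk2 (4.65) and high for Foxm1 (1.86) and Cdkn1a (6.32). Germ-free non-pregnant 1 was high for Myc (8.52), germ-free non-pregnant 3 for Cdc6 (0.508) and germ-free non-pregnant 6 for Rrm2 (9.80). Germ-free pregnant 5 was high for Foxm1 (2.54) and low for Bub1 (0.192), germ-free pregnant 1 was low for Rrm1 (6.79) and germ-free pregnant 2 for Rrm2 (2.43).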

How the results depend on the processing

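With all libraries 17 members were called with pregnancy in conventional and 2 in germ-free mice, and 0 in the other 3 comparisons under each setting that could be fitted (age could not, in the comparisons between microbiota states). In conventional mice the count was 16 to 20 under DESeq2, other size factors, other filters, a robust spread, voom or removal of mitochondrial genes. It was 5 with only the 2 groups fitted, 7 with age as a covariate in that fit, 11 without both outlying libraries, and 2 to 24 with each library left out in turn (2 without conventional pregnant 2, 9 without conventional non-pregnant 3, 11 without conventional non-pregnant 1, 4 or 5). In germ-free mice it was 8 with voom, 4 with only the 2 groups, 4 with the age covariate in that fit, 5 without both libraries, and 1 to 3 with each library left out in turn. The causes were not tested. Shares of all genes called are given above only for edgeR's main fit, its fits without the outlying libraries and its fits of the 2 groups alone. The counts under the other settings have no such share beside them. No called member changed sign. Ccnd1 kept its call in 33 of 33 settings, between -1.34 and -1.04 in conventional mice and between -1.18 and -0.90 in germ-free ones. DESeq2 gave no adjusted p for 5 members in each comparison, so its counts of calls leave them out. In the conventional pregnancy comparison these were Ccna2, Cdkn1a, Foxm1, Plk1 and Prc1. Each of them was called by edgeR there and was highest in conventional pregnant 2. The 12 other calls of that comparison were kept by DESeq2.

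Mice with the same replicate number are separate animals, and their deviations correlated from -0.226 to 0.175 in the conventional pregnancy comparison and from -0.001 to 0.219 in the germ-free one. With the replicate block, 13 members were called in conventional, 2 in germ-free mice and 0 elsewhere. Low counts limited Cdc6 and Bub1.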
